A study of Homo sapiens with 6 samples.

Results

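Lysosome and autophagy genes were followed in the human bladder cancer line T24 after knockdown of the long noncoding RNA BLACAT3. The 38 genes came from a list chosen with earlier results of these data known. They fell into 4 classes, namely 15 hydrolases and other proteins of the lysosomal lumen, 4 lysosomal membrane proteins, 5 parts of the proton pump and 14 autophagy genes. Of the 38 genes, 37 were found among the 11078 genes of the expression table by Ensembl identifier, and TFEB was not analysed here. Of these 37, 36 averaged 1 FPKM or more across the 6 libraries and were tested among 10008 genes in all, while GAA stayed under that level. FPKM counts fragments relative to transcript length and library size, so levels may be compared between genes.

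The shBLACAT3 cells stably carried a lentiviral short hairpin RNA against BLACAT3 and are labelled as a BLACAT3 knockdown, with 3 libraries. The shControl cells carried a lentiviral control hairpin and are labelled as wild type, also with 3 libraries. Cells of both groups had been selected with puromycin and are T24 throughout, and the labels do not say how many hairpins or clones were used or whether the numbered replicates were separate cultures. The p-values therefore rest on the spread between libraries alone, and this spread may be technical. Depth is unknown, since FPKM values hold no read counts, and the values summed to between 211958 and 226953 FPKM per library. The targeted RNA was not analysed here, so the labels were not checked against it. Of the markers looked up to check the cell type, the 3 of 6 epithelial markers analysed, the keratins KRT7, KRT8 and KRT18, summed to 117 to 136 FPKM in shBLACAT3 libraries and 174 to 204 FPKM in shControl libraries, and their part in the results was not tested. Their directions differed, with means in shBLACAT3 and shControl cells of 32.0 and 20.0 FPKM for KRT7, 22.1 and 60.7 FPKM for KRT8, and 74.2 and 112 FPKM for KRT18. Of 8 urothelial markers PPARG (4.71 FPKM in shBLACAT3 and 3.77 FPKM in shControl cells) and FOXA1 (1.88 FPKM in shBLACAT3 and 2.53 FPKM in shControl cells) were analysed, and the uroplakins, GATA3 and TP63 were not analysed here. Of 8 macrophage markers only CD68 was analysed, at 0.0038 to 0.624 FPKM in shBLACAT3 and 0.686 to 1.22 FPKM in shControl libraries, and no endothelial or lymphocyte marker was analysed.

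Lysosomes are acidic organelles in which hydrolases break down proteins, lipids and sugar chains. The hydrolases work at low pH, which a proton pump in the membrane keeps up by spending ATP. In autophagy a double membrane grows around cytoplasm, is decorated with small ubiquitin-like proteins of the ATG8 family and fuses with a lysosome. The transcription factor TFEB binds a sequence element near many of these genes, called the CLEAR element, whose core is an E-box, and the kinase mTORC1 holds TFEB in the cytoplasm when nutrients are plentiful.

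The start regions of the genes were read for this element, since it is the feature that the lysosomal classes are known to share. RefSeq promoter windows on GRCh38.p14, 250 bases before to 50 bases after the gene start, were matched by symbol for 30 of the 38 genes. The motifs searched were the E-box CACGTG and the longer core TCACGTGA, each of which reads the same on both strands, and every match of the longer motif is also an E-box. The stretches below show 4 windows with matches and those of CTSL and GABARAPL1, the genes whose levels passed the test, with each E-box or longer core in capitals. Each stretch is the last 80 bases before the start, except for LAMP1, where it is the 80 bases that begin 200 before the start.
CTSA, chr20:45891255-45891334, plus strand: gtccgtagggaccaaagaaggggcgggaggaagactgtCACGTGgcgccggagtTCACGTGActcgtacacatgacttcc
MCOLN1, chr19:7522544-7522623, plus strand: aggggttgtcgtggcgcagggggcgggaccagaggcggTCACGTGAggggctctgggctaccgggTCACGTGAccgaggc
ATP6V0D1, chr16:67481158-67481237, minus strand: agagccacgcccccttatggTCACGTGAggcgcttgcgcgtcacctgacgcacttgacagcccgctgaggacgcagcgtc
LAMP1, chr13:113297039-113297118, plus strand: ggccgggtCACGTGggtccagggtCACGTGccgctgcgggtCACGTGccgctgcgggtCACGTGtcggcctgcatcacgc
CTSL, chr9:87726039-87726118, plus strand: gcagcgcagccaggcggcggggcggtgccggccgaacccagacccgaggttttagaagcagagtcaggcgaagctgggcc
GABARAPL1, chr12:10212797-10212876, plus strand: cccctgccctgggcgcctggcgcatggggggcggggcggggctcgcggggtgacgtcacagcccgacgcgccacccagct

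An E-box stood in 7 of the 30 windows (23.3%), namely those of CTSA, CTSD, GAA, NEU1, LAMP1, MCOLN1 and ATP6V0D1, in 10.5% of the windows of tested genes and in 7.43% of all 27305 promoter windows of the same length. The longer core stood in 5 of the 30 (16.7%), those of CTSA, GAA, LAMP1, MCOLN1 and ATP6V0D1, in 2.15% of the windows of tested genes and in 1.04% of all windows. LAMP1 held 6 E-boxes in its whole window, 2 of them with the longer core. All 7 genes with an E-box were of the lumen, membrane or pump classes, and of the 13 autophagy windows 0 held either motif. Neither motif was found in the windows of CTSL and GABARAPL1, which says only that these letters are not in these windows. Of the 6 tested members with an E-box, 0 passed the limma test described next, and the median log2 fold change of the 6 was 0.09. NEU1 and MCOLN1 had an unadjusted p under 0.05 in limma, as did 25.7% of all tested genes. The share of calls was 8.62% among all 847 tested genes with an E-box and 9.37% among all tested genes.

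The comparison asked which of these genes differ in level when BLACAT3 is knocked down. CTSL, the gene of the cysteine protease cathepsin L, and GABARAPL1, an ATG8 protein that is conjugated to the growing autophagosome membrane, were lower in shBLACAT3 cells, and no member was higher. CTSL averaged 29.1 ± 2.52 FPKM in shBLACAT3 cells and 50.2 ± 1.48 FPKM in shControl cells (SD, n = 3 each), a ratio of 0.58. GABARAPL1 averaged 12.1 ± 1.27 FPKM in shBLACAT3 cells and 17.5 ± 1.5 FPKM in shControl cells (SD, n = 3 each), a ratio of 0.69. In limma, 2 of the 36 tested members (5.56%) thus passed an adjusted p under 0.05, where 9.37% of all tested genes did, 2.57% higher and 6.8% lower. With 2 calls, the members' share cannot be told apart from that of all genes, and no set test was run. At an unadjusted p under 0.05, 10 members (4 higher, 6 lower) and 25.7% of all genes passed. The groups did not overlap in 15 members (41.7%), 5 higher and 10 lower in shBLACAT3 cells, against 32.8% of all genes, 14.1% higher and 18.7% lower. As the members were chosen with earlier results of these data known, these shares cannot show whether they differ from other genes.

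The spread of the members' changes was small and lay around 0. Their median log2 fold change was -0.04, on the log2(FPKM + 1) scale that is used for all fold changes here and that understates the change of low genes, while the median of all tested genes was -0.0025. The middle 50% of the members lay between -0.16 and 0.12, and that of all tested genes between -0.16 and 0.14. The lowest member was CTSB with -0.88 and the highest MCOLN1 with 0.34. By class, 1 of 14 lumen genes (median -0.05), 0 of 4 membrane genes (0.13), 0 of 5 pump genes (-0.06) and 1 of 13 autophagy genes (-0.05) passed in limma. At an unadjusted p under 0.05 these counts were 3, 1, 1 and 5, where 25.7% of all tested genes passed. The median level of the members over the 6 libraries was 13.2 FPKM, and that of all tested genes 7.15 FPKM.

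**Figure D1:**
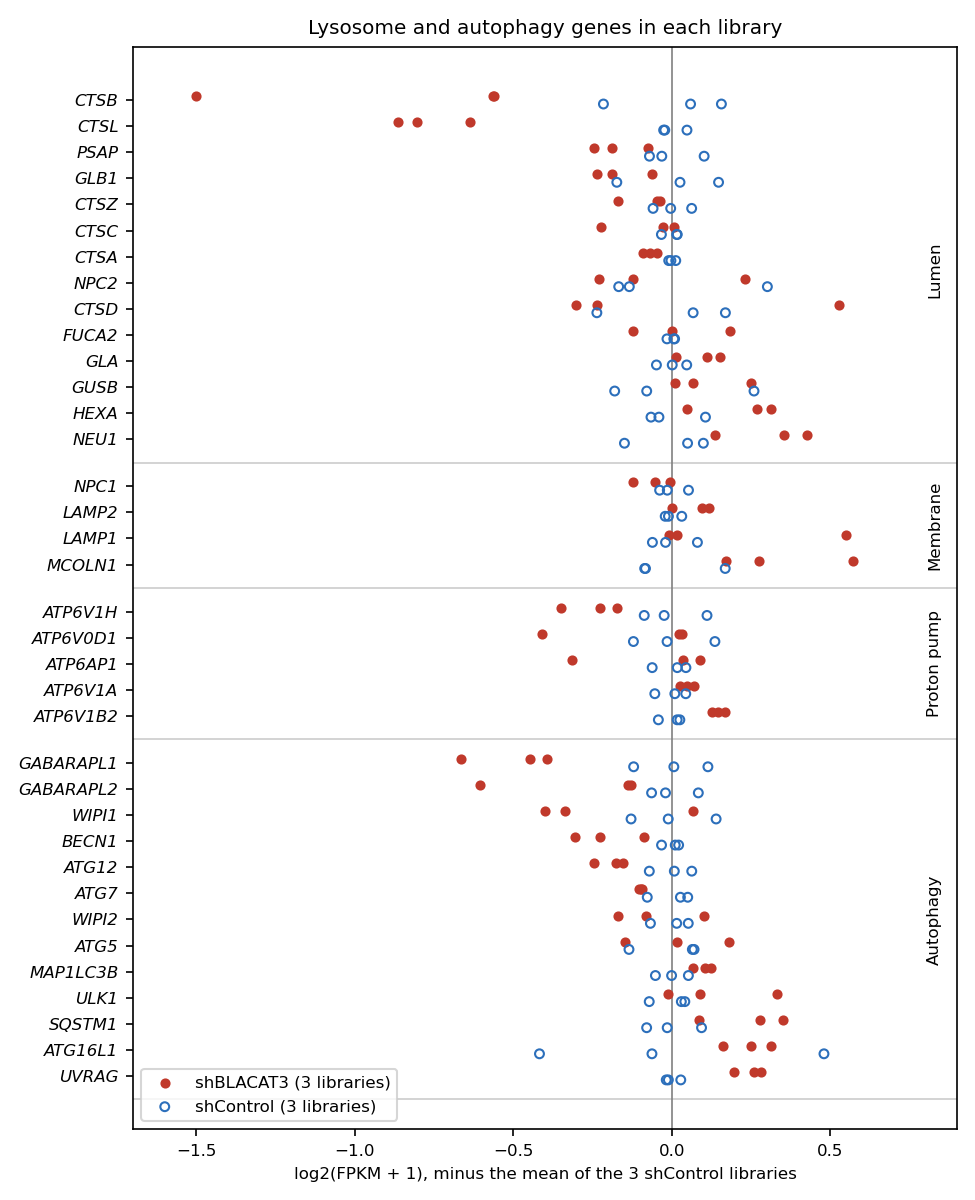
Each row is a tested member, and points give its level in each library as log2(FPKM + 1) minus the mean of the 3 shControl libraries, with 3 filled points for shBLACAT3 and 3 open points for shControl. CTSL, GABARAPL1 and CTSB lie apart from shControl on the low side, and the farthest point of CTSB is shBLACAT3 replicate 3. In most other rows the points of the groups lie near 0 or overlap.

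Among the proteases of the lumen, CTSL stood at 27.1, 28.3 and 32.0 FPKM in shBLACAT3 replicates 1, 2 and 3, and at 51.9, 49.4 and 49.3 FPKM in shControl replicates 1, 2 and 3. All 3 shBLACAT3 libraries were far under the lowest shControl library, and the shControl libraries lay close together. The log2 fold change was -0.77 (SE 0.07, adjusted p 0.0018 in limma), and the gene (ENSG00000135047) passed under every other setting that was run, with adjusted p from 0.001 to 0.019.

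CTSB, which encodes cathepsin B, a related cysteine protease, stood at 15.4, 15.3 and 7.54 FPKM in shBLACAT3 libraries and at 26.0, 19.8 and 24.2 FPKM in shControl libraries. The groups did not overlap, but shBLACAT3 replicate 3 was far under the other shBLACAT3 libraries, which were nearly equal. Its log2 fold change of -0.88 (SE 0.26, 95% interval -1.50 to -0.25) was the lowest among the members and did not pass over all genes (adjusted p 0.095 in limma). Without shBLACAT3 replicate 3 it passed, with a smaller log2 fold change of -0.56 (adjusted p 0.037).

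CTSD, the aspartic protease cathepsin D, stood at 32.2, 17.7 and 18.5 FPKM in shBLACAT3 libraries and at 24.9, 18.6 and 23.1 FPKM in shControl libraries. Here shBLACAT3 replicate 1 was the highest of all 6 libraries and the groups overlapped (log2 fold change -0.0041, 95% interval -0.56 to 0.55). GENCODE 29 places a protein-coding gene, AC068580.4, and an antisense gene, AC068580.3, over CTSD, and how reads were divided between them is not stated.

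The other proteases did not pass either. CTSZ, a carboxypeptidase, stood at 45.6, 41.5 and 45.3 FPKM in shBLACAT3 libraries and at 48.9, 44.9 and 46.7 FPKM in shControl libraries (adjusted p 0.46 in limma). CTSA, a carboxypeptidase that also shields the glycosidases GLB1 and NEU1 from breakdown, ranged from 19.6 to 20.2 FPKM in shBLACAT3 libraries and from 20.8 to 21.1 FPKM in shControl libraries, so that the groups did not overlap while the log2 fold change was -0.07 (adjusted p 0.47). CTSC, a dipeptidase that activates granule proteases, averaged 9.34 ± 0.871 FPKM in shBLACAT3 cells and 9.92 ± 0.214 FPKM in shControl cells (SD, n = 3 each; adjusted p 0.58 in limma).

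Among the helpers of the lumen, PSAP, the precursor of the saposins that present lipids to hydrolases, had the highest level of all members, above 97.6% of the tested genes. It stood at 106, 94.3 and 98.2 FPKM in shBLACAT3 libraries and at 120, 107 and 110 FPKM in shControl libraries. The groups did not overlap, though the highest shBLACAT3 library lay close under the lowest shControl library, and the log2 fold change of -0.17 (95% interval -0.34 to 0.0030) did not pass (adjusted p 0.20 in limma). NPC2, which hands cholesterol from the lumen to the membrane, stood at 25.7, 23.8 and 33.1 FPKM in shBLACAT3 libraries and at 34.8, 24.8 and 25.4 FPKM in shControl libraries, with 1 high library in each group.

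The glycosidases, which trim sugar chains from lipids and proteins, held no member that passed. NEU1, the sialidase, stood at 5.75, 4.81 and 6.10 FPKM in shBLACAT3 libraries and at 4.47, 3.77 and 4.67 FPKM in shControl libraries, so that every shBLACAT3 library was above every shControl library. Its log2 fold change was 0.30 (SE 0.11, 95% interval 0.04 to 0.57, adjusted p 0.15 in limma). HEXA, the alpha subunit of beta-hexosaminidase, was the lowest tested member, at 1.46, 1.05 and 1.39 FPKM in shBLACAT3 libraries and at 0.896, 0.929 and 1.14 FPKM in shControl libraries, and the groups overlapped. HEXA is overlapped on the same strand by the protein-coding gene AC009690.1.

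The remaining glycosidases lay closer to 0. GLB1, beta-galactosidase, averaged 9.66 ± 0.665 FPKM in shBLACAT3 cells and 11.0 ± 1.32 FPKM in shControl cells, and GLA, alpha-galactosidase, 19.2 ± 0.982 and 17.9 ± 0.626 FPKM in shBLACAT3 and shControl cells (SD, n = 3 per group). GUSB, beta-glucuronidase, and FUCA2, a fucosidase that is mostly secreted, had log2 fold changes of 0.11 and 0.02. GAA, the glucosidase that degrades glycogen, was under the level for testing, at 0.568, 0.574 and 0.511 FPKM in shBLACAT3 libraries and at 0.409, 0.490 and 0.571 FPKM in shControl libraries. With the level for testing lowered to 0.1 FPKM it did not pass (log2 fold change 0.06, adjusted p 0.64 in limma).

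**Figure D2:**
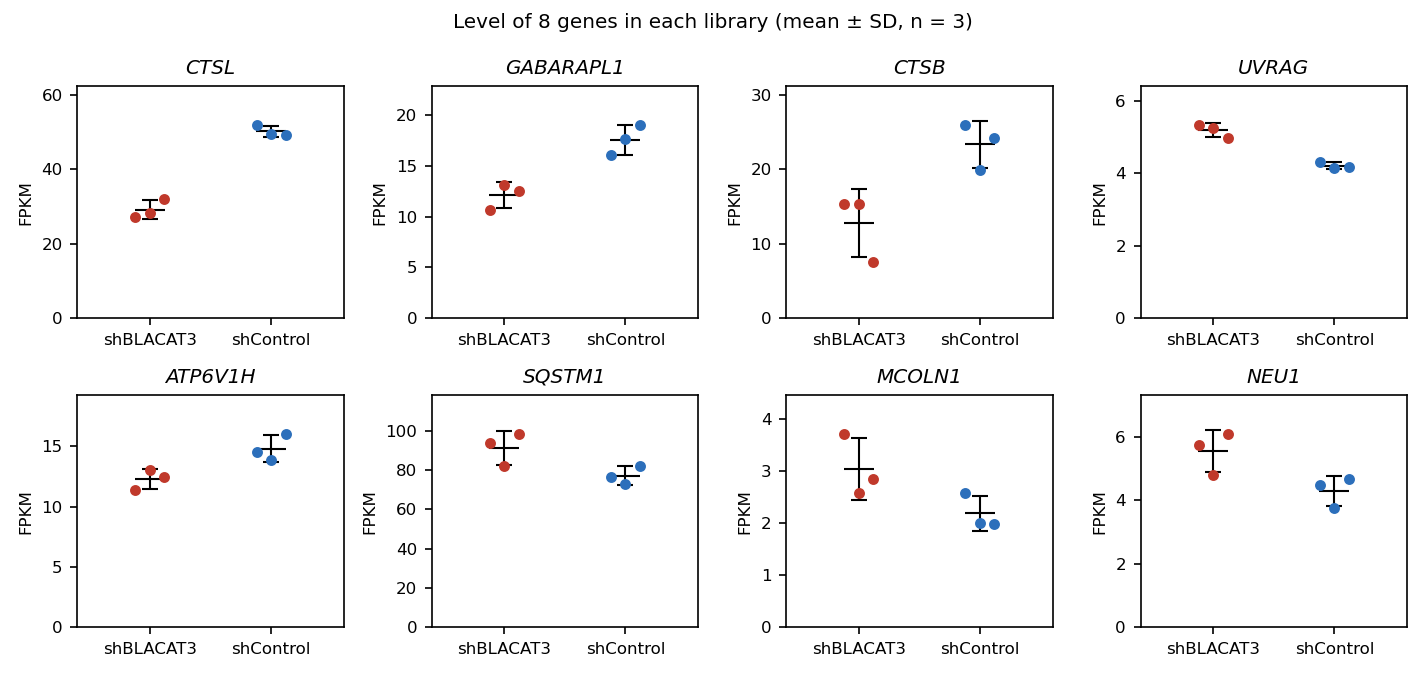
Level in FPKM, from 0, of 8 genes in each library, with shBLACAT3 left of shControl in each panel and the mean and SD of 3 libraries in black. CTSL and GABARAPL1, which passed the test, are lower in all shBLACAT3 libraries. CTSB, which did not pass, is also lower in all of them, and its lowest point is shBLACAT3 replicate 3.

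None of the 4 membrane genes passed. MCOLN1, the calcium channel of the lysosome, which acts upstream of TFEB by releasing calcium, stood at 3.73, 2.58 and 2.85 FPKM in shBLACAT3 libraries and at 2.58, 2.0 and 2.0 FPKM in shControl libraries. The lowest shBLACAT3 library and the highest shControl library were nearly equal, and the log2 fold change of 0.34 (SE 0.13, 95% interval 0.02 to 0.66) did not pass (adjusted p 0.17 in limma). GENCODE 29 places the protein-coding genes PNPLA6 and AC008878.2 over it on the same strand.

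The main glycoproteins of the lysosomal membrane were LAMP1 and LAMP2. LAMP1 stood at 26.3, 38.6 and 25.9 FPKM in shBLACAT3 libraries and at 27.6, 24.9 and 25.7 FPKM in shControl libraries. shBLACAT3 replicate 2 was well above the rest, and the other shBLACAT3 libraries lay within the shControl range. LAMP2 stood at 33.7, 36.6 and 36.0 FPKM in shBLACAT3 libraries and at 34.4, 33.4 and 33.2 FPKM in shControl libraries (adjusted p 0.48 in limma). NPC1, which takes cholesterol from NPC2 and exports it, stood at 13.0, 12.6 and 11.9 FPKM in shBLACAT3 libraries and at 13.6, 12.7 and 12.9 FPKM in shControl libraries, and its 95% interval ran from -0.22 to 0.10.

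The proton pump has a cytosolic V1 part that splits ATP and a membrane V0 part that carries protons, and none of its 5 genes passed. ATP6V1H, a regulatory V1 subunit, stood at 11.4, 13.0 and 12.5 FPKM in shBLACAT3 libraries and at 14.5, 13.8 and 16.0 FPKM in shControl libraries, with no overlap. Its log2 fold change was -0.25 (SE 0.08, 95% interval -0.45 to -0.05, adjusted p 0.12 in limma). ATP6V1B2, a V1 subunit next to the catalytic sites, had higher values in shBLACAT3 libraries without passing, at 9.38, 9.53 and 9.68 FPKM in them and at 8.24, 8.68 and 8.63 FPKM in shControl libraries (log2 fold change 0.15, adjusted p 0.21).

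ATP6V1A, the catalytic V1 subunit and with 25.3 FPKM the highest of these 5 genes, averaged 25.8 ± 0.426 FPKM in shBLACAT3 cells and 24.9 ± 0.884 FPKM in shControl cells (SD, n = 3 each), and its 95% interval ran from -0.09 to 0.18. ATP6V0D1, a V0 subunit, stood at 9.32, 6.59 and 9.24 FPKM in shBLACAT3 libraries and at 8.28, 10.1 and 8.98 FPKM in shControl libraries. ATP6AP1, an accessory subunit that helps the pump assemble, stood at 12.3, 9.03 and 11.8 FPKM in shBLACAT3 libraries and at 11.9, 11.6 and 11.0 FPKM in shControl libraries. In both genes shBLACAT3 replicate 2 was the lowest of the 6 libraries, and without it their log2 fold changes turned to 0.03 and 0.06 (main values -0.12 and -0.06).

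Of the ATG8 proteins, GABARAPL1 (ENSG00000139112) stood at 10.7, 13.1 and 12.5 FPKM in shBLACAT3 libraries and at 16.0, 17.6 and 19.0 FPKM in shControl libraries. The groups did not overlap, and the log2 fold change was -0.50 (SE 0.10, adjusted p 0.027 in limma). The call was lost without shBLACAT3 replicate 1 (adjusted p 0.066) and without shControl replicates 1, 2 or 3 (0.058, 0.095 and 0.1), with log2 fold changes between -0.56 and -0.42. An antisense gene, AC115676.1, overlaps it in GENCODE 29.

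GABARAPL2, a related ATG8 protein, stood at 39.0, 27.9 and 39.2 FPKM in shBLACAT3 libraries and at 41.1, 42.4 and 45.6 FPKM in shControl libraries. All shBLACAT3 libraries were lower, with replicate 2 far under the others, and the log2 fold change of -0.29 (95% interval -0.61 to 0.03) did not pass (adjusted p 0.23 in limma). MAP1LC3B, the ATG8 protein most used to mark autophagosomes, stood at 34.5, 35.5 and 35.9 FPKM in shBLACAT3 libraries and at 32.9, 31.7 and 34.1 FPKM in shControl libraries, so that the groups were apart by a narrow margin in the higher direction (log2 fold change 0.10, 95% interval -0.03 to 0.23, adjusted p 0.31). MAP1LC3B has a near-identical copy, MAP1LC3B2, so its level depends on how shared reads were assigned. Whether the 3 ATG8 genes differ from each other in their change was not tested.

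SQSTM1, the cargo receptor p62, which links ubiquitinated proteins to ATG8 proteins and is itself degraded by autophagy, was the highest of the 13 tested autophagy genes. It stood at 93.7, 82.0 and 98.5 FPKM in shBLACAT3 libraries and at 76.3, 72.9 and 82.3 FPKM in shControl libraries. The lowest shBLACAT3 library and the highest shControl library overlapped by a small margin, and the log2 fold change of 0.24 (SE 0.09, 95% interval 0.03 to 0.44) did not pass (adjusted p 0.14 in limma). MRNIP and MGAT4B overlap it on the opposite strand in GENCODE 29.

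UVRAG and BECN1, genes of lipid kinase complexes, differed in direction without passing. UVRAG, a subunit of the complex used in endosome and autophagosome maturation, stood at 5.34, 5.25 and 4.98 FPKM in shBLACAT3 libraries and at 4.32, 4.15 and 4.17 FPKM in shControl libraries, with no overlap. It was the member nearest to the threshold from outside, with a log2 fold change of 0.25 (SE 0.07, 95% interval 0.08 to 0.42, adjusted p 0.083 in limma). BECN1, the Beclin 1 subunit, stood at 8.05, 9.52 and 8.56 FPKM in shBLACAT3 libraries and at 10.3, 9.94 and 10.4 FPKM in shControl libraries, again with no overlap (log2 fold change -0.21, adjusted p 0.16).

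In the conjugation machinery that attaches ATG8 proteins to lipid, ATG12, itself ubiquitin-like, stood at 14.3, 14.5 and 13.6 FPKM in shBLACAT3 libraries and at 15.5, 17.1 and 16.4 FPKM in shControl libraries. The groups did not overlap, and its log2 fold change of -0.19 (95% interval -0.35 to -0.03) did not pass (adjusted p 0.13 in limma). ATG7, the activating enzyme, ranged from 2.75 to 2.77 FPKM in shBLACAT3 libraries and from 2.82 to 3.18 FPKM in shControl libraries. ATG5, to which ATG12 is joined, averaged 9.45 ± 1.19 FPKM in shBLACAT3 cells and 9.31 ± 0.816 FPKM in shControl cells (SD, n = 3 each). ATG16L1, which places the ATG12 and ATG5 conjugate on the membrane, was the most uneven of these genes in shControl libraries, at 5.00, 3.12 and 2.22 FPKM, and stood at 4.35, 4.12 and 3.82 FPKM in shBLACAT3 libraries.

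ULK1, the kinase that starts autophagy and is held back by mTORC1, averaged 5.01 ± 0.752 FPKM in shBLACAT3 cells and 4.45 ± 0.231 FPKM in shControl cells (SD, n = 3 each; adjusted p 0.47 in limma). WIPI1, which reads the lipid made by the kinase complex, stood at 5.19, 4.92 and 7.18 FPKM in shBLACAT3 libraries and at 7.61, 6.76 and 6.15 FPKM in shControl libraries, and its relative WIPI2 had a log2 fold change of -0.05. The groups overlapped in ULK1, WIPI1 and WIPI2.

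Summed over a class, the libraries of the groups overlapped for the autophagy, pump and membrane genes but not for the lumen genes. The 13 tested autophagy genes summed to 240, 221 and 246 FPKM in shBLACAT3 libraries and to 233, 229 and 243 FPKM in shControl libraries. The 5 pump genes summed to 67.7, 64.3 and 69.0 FPKM in shBLACAT3 libraries and to 68.6, 69.3 and 68.5 FPKM in shControl libraries, and the 4 membrane genes to 76.8, 90.4 and 76.6 and to 78.2, 73.0 and 73.8 FPKM in shBLACAT3 and shControl libraries. The 14 lumen genes summed to 361, 331 and 351 FPKM in shBLACAT3 libraries and to 421, 373 and 386 FPKM in shControl libraries, so that the sums did not overlap. As a mean of log2(FPKM + 1) the same genes did overlap, at 4.22, 4.11 and 4.16 in shBLACAT3 libraries and at 4.36, 4.20 and 4.26 in shControl libraries. The difference of the summed means was -45.7 FPKM for the 14 genes, of which CTSL, CTSB and PSAP held -44.2 FPKM.

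Other genes of the pathway, 176 in a wider list without the members, were read from the same test, and 160 reached the level for testing. Of these, 3 were higher and 16 lower (11.9% in all, against 9.37% of all tested genes), with a median log2 fold change of -0.03. Among other hydrolases and lumen proteins 7 of 35 (20%, against 6.8% of all tested genes) were lower and 0 higher in limma, with a median of -0.13. At an unadjusted p under 0.05 in limma, 11 were lower and 2 higher. Of all 10008 tested genes 25.7% passed in either direction, 1519 lower and 1050 higher. CTSO, among the 11 lower genes, averaged 0.868 FPKM in shBLACAT3 cells and 1.36 FPKM in shControl cells. It reached the level for testing only through the shControl libraries and carries little weight in this count. The wider list was chosen with earlier results of these data known. The shares of its classes therefore cannot show whether a class differs from other genes, and no set test was run. IFI30, a thiol reductase of the lumen that interferon gamma induces, stood at 5.83, 5.01 and 6.46 FPKM in shBLACAT3 libraries and at 14.8, 13.0 and 12.5 FPKM in shControl libraries (log2 fold change -1.09, SE 0.11, adjusted p 0.0019 in limma). PPT2, a thioesterase, fell to 3.65 ± 0.166 FPKM in shBLACAT3 cells, against 5.74 ± 0.266 FPKM in shControl cells, and CREG1, a glycoprotein of the lumen, to 12.1 ± 0.373 FPKM, against 17.1 ± 0.997 FPKM (SD, n = 3 per group). IFI30 and PPT2 are each overlapped on the same strand by a protein-coding gene, AC007192.1 and PPT2-EGFL8. LGMN, the gene of the protease legumain, fell to 7.02 ± 0.267 FPKM in shBLACAT3 cells, against 9.24 ± 0.851 FPKM in shControl cells (SD, n = 3 each), with an adjusted p of 0.049 in limma that was lost without any 1 of the 6 libraries.

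Among other membrane proteins 4 of 20 (20%) were lower and 1 higher, where 6.8% of all tested genes were lower and 2.57% higher. CD164, a sialomucin, stood at 32.7, 32.5 and 29.1 FPKM in shBLACAT3 libraries and at 23.6, 17.6 and 20.3 FPKM in shControl libraries (log2 fold change 0.60, adjusted p 0.022 in limma). SLC17A5, which exports sialic acid, fell by 0.41 and TPCN2, an ion channel, by 0.41 on the log2 scale, and LAPTM4A and LAPTM4B were lower as well. TPCN2 averaged 0.748 ± 0.106 FPKM in shBLACAT3 cells and 1.32 ± 0.0839 FPKM in shControl cells (SD, n = 3 each). It thus reached the level for testing only through the shControl libraries, and its call carries little weight in the count of lower genes. Of 15 other pump genes 2 (13.3%, against 9.37% of all tested genes) passed, 1 in each direction. The V0 subunit gene ATP6V0B stood at 5.66, 6.21 and 7.40 FPKM in shBLACAT3 libraries and at 9.52, 10.1 and 9.15 FPKM in shControl libraries, and was lower (adjusted p 0.027 in limma). The assembly factor VMA21 was higher, with a log2 fold change of 0.27 (adjusted p 0.026). All 7 of these calls were lost without shBLACAT3 replicate 1, and each without at least 1 other library. With 1 library left out, the adjusted p in limma ran up to 0.080 for CD164, 0.069 for SLC17A5, 0.075 for TPCN2, 0.10 for LAPTM4A, 0.099 for LAPTM4B, 0.10 for ATP6V0B and 0.11 for VMA21. TPCN2 was also lost under quantile normalization (adjusted p 0.095), and it was under the level for testing without any 1 of the shControl libraries.

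Of 18 other genes of initiation and lipid kinases, 8 other ATG8 and conjugation genes and 12 genes of hydrolase delivery, 0 passed in each group in limma. At an unadjusted p under 0.05 the counts were 0, 1 and 0, where 25.7% of all tested genes passed. Of 15 other cargo receptors 2 (13.3%, against 9.37% of all tested genes) passed, both lower. The log2 fold changes of the 15 genes ran from -0.88 to 1.34, with 10 below 0 and 5 above. The highest was that of BNIP3L, which did not pass (adjusted p 0.10 in limma). RETREG1, which marks the endoplasmic reticulum for autophagy, stood at 2.05, 2.40 and 2.11 FPKM in shBLACAT3 libraries and at 4.33, 4.6 and 5.71 FPKM in shControl libraries (log2 fold change -0.88, SE 0.11, adjusted p 0.0052). BNIP3, a receptor for mitochondria and a hypoxia target, fell to 19.0 ± 1.16 FPKM in shBLACAT3 cells, against 33.6 ± 0.471 FPKM in shControl cells (SD, n = 3 each). Of 14 fusion genes 1 (7.14%, against 6.8% of all tested genes) was lower and 0 higher. It was VAMP8, a SNARE of autophagosome fusion, lower by 0.51 on the log2 scale. The call of VAMP8 was lost without shBLACAT3 replicate 1 or any 1 of the shControl libraries (adjusted p up to 0.0995 in limma).

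Of 23 regulators of TFEB and mTORC1 at the lysosome 1 was higher and 1 lower (8.7% in all, against 9.37% of all tested genes). FLCN, folliculin, part of a complex that controls how mTORC1 treats TFEB, stood at 5.29, 4.70 and 5.22 FPKM in shBLACAT3 libraries and at 2.91, 2.64 and 3.36 FPKM in shControl libraries. The groups were well apart (log2 fold change 0.62, SE 0.10, adjusted p 0.012 in limma), and the call was lost without shControl replicate 1 or 2, with adjusted p up to 0.06. A protein-coding gene, AC055811.2, overlaps FLCN on the same strand. LAMTOR2, part of the scaffold that docks mTORC1 on the lysosome, stood at 19.2, 20.8 and 21.9 FPKM in shBLACAT3 libraries and at 29.8, 27.0 and 28.3 FPKM in shControl libraries, and was lower (log2 fold change -0.44, SE 0.07, adjusted p 0.014). Its call was lost without shControl replicate 1 or 3, with adjusted p up to 0.069.

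**Figure D3:**
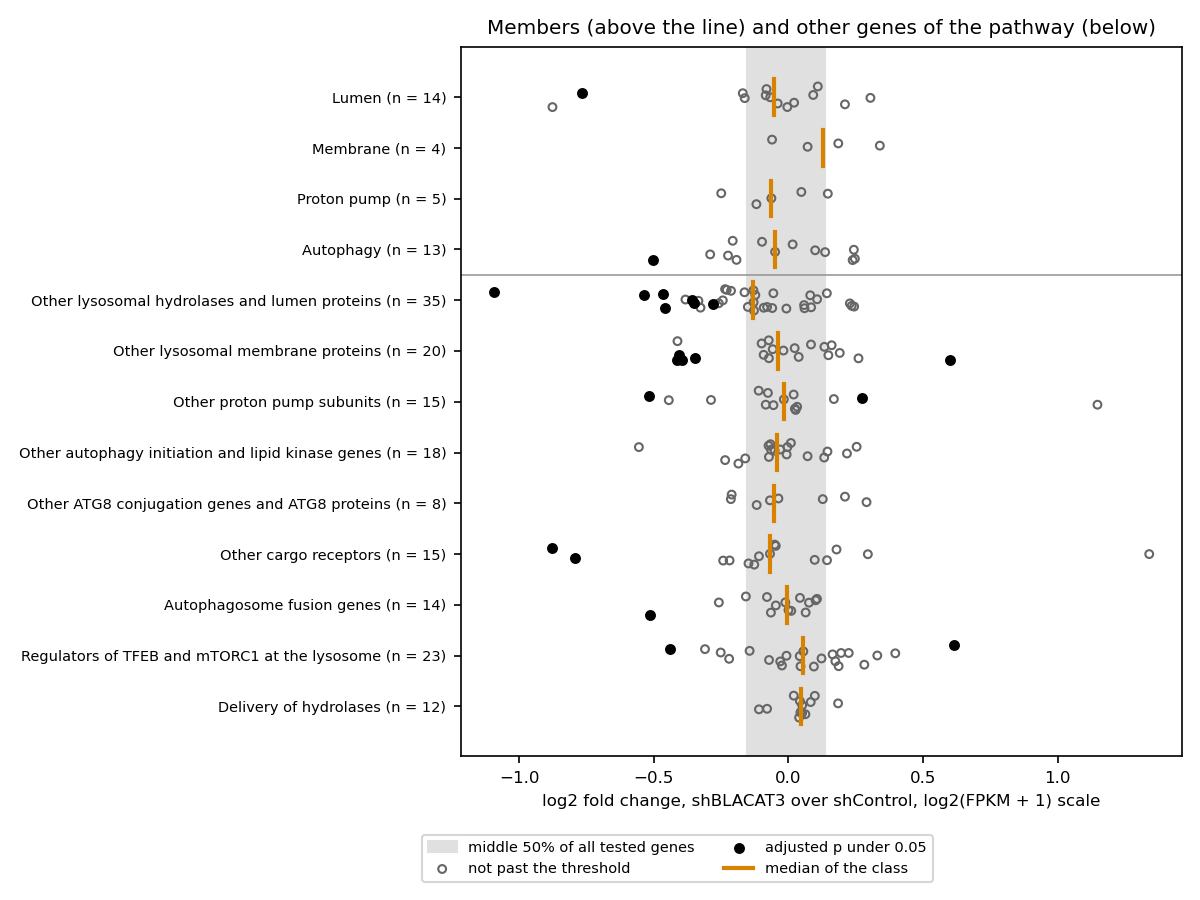
Log2 fold change of shBLACAT3 over shControl on the log2(FPKM + 1) scale, with 1 point per gene, for the 4 member classes above the line and the classes of the wider list below it; filled points passed an adjusted p under 0.05, and bars are class medians. The grey band holds the middle 50% of all tested genes, -0.16 to 0.14, and the other hydrolases and lumen proteins have the lowest class median, -0.13.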

How the data were processed

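The submitters' processing notes name cutadapt, HISAT2 2.1.0 and StringTie without saying what each did, and they give no build, annotation or strand setting. The deposited values were taken to be FPKM because of these tools and because they are fractional with unequal column sums; no unit stands in the header. In every row the higher group mean was at least 0.5 FPKM. Of 11081 rows, 11026 were matched to symbols of GENCODE 29 by identifier without version, and 3 symbols with more than 1 row were summed.

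The 10008 genes averaging 1 FPKM or more were compared on the log2(FPKM + 1) scale by limma 3.58.1 (R 4.3.3). The model held group alone, moderation used a mean-variance trend, p was two-sided and Benjamini-Hochberg adjusted over all 10008 genes, and the threshold was 0.05. The script was tested on simulated data. FPKM hold no counts, so neither a count test nor counting intervals were used. The members, the wider list and the rules were chosen with earlier results of these data known. All members are accounted for, and of each class of the wider list up to 3 genes past the threshold with the largest change were to be named. LGMN, CTSO, LAPTM4A, LAPTM4B, BNIP3L and ATP6V0E2 were named after their values were seen. Some genes of the wider list are not reported here by name. Alternatives covered the replicate block, pseudocount, filter, scaling, moderation, weights and each library left out. Figures were drawn with matplotlib 3.10.9.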

Additional observations from a re-analysis of the deposited data

How the results depend on the processing

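CTSL and GABARAPL1 were the 2 members called under each of the 9 other settings that kept all libraries. With 1 library left out the count of members called ran from 1 to 3, that of all genes from 357 (without shControl replicate 1) to 1342 (without shBLACAT3 replicate 3), and that of the wider list from 6 to 24. CTSB was called without shBLACAT3 replicate 3 and in no other setting run. Same-numbered libraries had correlations of 0.0895 to 0.117 in their deviations from the group means. Each was the best match of the other, and no other pair was above 0.0241. Whether the numbers pair the libraries is not known from the labels, and the main model did not use them. With the replicate number as a block, 612 of all genes and 11 of the wider list were called, against 938 and 19, and no member changed its call. Of the 19 genes of the wider list, PPT2, CREG1, IFI30, BNIP3 and RETREG1 kept their call in all 15 settings, while LGMN lost it in 7, LAPTM4A, LAPTM4B and ATP6V0B in 6 each, VMA21 in 5, CD164, SLC17A5, TPCN2 (of 12 settings that tested it) and VAMP8 in 4 each, LAMTOR2 in 3 and FLCN in 2. The median of all tested genes moved by less than 0.1 under any scaling. CTSD turned sign under median scaling (0.0020), quantile normalization (0.0074) and array weights (0.16), and FUCA2 under array weights (-0.020). With 1 library left out, the sign also turned in CTSD (-0.27 to 0.14), FUCA2 (-0.060 to 0.092), NPC2 (-0.18 to 0.11), ATP6V0D1 (-0.19 to 0.027), ATP6AP1 (-0.14 to 0.062), ATG5 (-0.067 to 0.098) and WIPI2 (-0.13 to 0.010), none of which was called in any setting. The cause was not tested. Depth is unknown, so what it limits was not measured.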

Other observations

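The 2 largest positive log2 fold changes of the wider list belonged to genes whose shControl libraries differed widely. BNIP3L, a mitophagy receptor, stood at 50.9, 56.8 and 43.7 FPKM in shBLACAT3 libraries and at 12.7, 40.8 and 13.4 FPKM in shControl libraries, with a log2 fold change of 1.34 that did not pass in limma (adjusted p 0.10), and that passed without shControl replicate 2. ATP6V0E2, a V0 subunit gene, stood at 21.0, 16.8 and 22.9 FPKM in shBLACAT3 libraries and at 14.3, 15.2 and 2.47 FPKM in shControl libraries, with a log2 fold change of 1.15 (adjusted p 0.26).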
